A study of Homo sapiens with 4 samples.

Results

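The genes described here are GABRP and VTCN1, both known from the human amnion, together with ITGB6, ANXA3, HEY1, EPAS1 and CYP1B1. These 7 genes, of 23364 listed in any of the 4 deposited tables, were chosen because their measured values were higher in blastoid cells that carry the transcription factors TFAP2A or TFAP2B. Their levels, their detection and their co-detection are therefore given as a description, with no test. Single-cell RNA was measured in 2 samples of KhES1, an established human embryonic stem cell (hESC) line kept on Matrigel in mTeSR-1 medium (hESC 1 and hESC 2), and in 2 samples of blastoids made from that line (blastoid 3 and blastoid 4). A blastoid is a stem cell structure grown to resemble a blastocyst. Aggregates of KhES1 cells formed in microwells were embedded in a PNIPAAm-PEG hydrogel, kept first in DMEM with serum and then in iBlastoid medium. All 4 samples come from 1 line with no genetic change named, and nothing in the labels says that the samples of a group were separate cultures, so their spread may be technical.

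The amnion is the thin epithelium that encloses the embryo and its fluid. It arises from pluripotent epiblast under BMP signals, and TFAP2A, TFAP2B, GATA3 and ISL1 are among the transcription factors it uses, several of them shared with trophoblast. GABRP encodes the pi subunit of the GABA-A receptor, a chloride channel opened by the transmitter GABA, and VTCN1 encodes B7-H4, a surface protein of the B7 family that restrains T cells. ITGB6 is the beta-6 integrin chain, which with the alpha-V chain binds latent TGF-beta in epithelia. ANXA3 is a calcium-dependent membrane-binding annexin. HEY1 is a transcriptional repressor induced by Notch and BMP signals, EPAS1 is the hypoxia-inducible factor subunit HIF-2 alpha, and CYP1B1 is a cytochrome P450 that oxidises oestrogens and retinoids and is induced through the aryl hydrocarbon receptor AHR.

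The GENCODE 29 annotation of GRCh38 places GABRP on chromosome 5 (170763350 to 170814047, plus strand), VTCN1 on chromosome 1 (117143587 to 117210960, minus strand), ANXA3 on chromosome 4 (78551519 to 78610451, plus strand) and 3 members on chromosome 2. Those on chromosome 2 are CYP1B1 (38066973 to 38109902, minus strand), EPAS1 (46293667 to 46386703, plus strand) and ITGB6 (160099666 to 160200313, minus strand), all of them protein-coding like the others. The promoters of the 2 leading genes are shown because both genes were found together in cells, and the windows run from 250 to 51 bases before the RefSeq start (GRCh38.p14). The GABRP window is chr5:170783475-170783674 on the plus strand and lies inside the GENCODE span of the gene, upstream of an internal start and outside its exons. The VTCN1 window is chr1:117210978-117211177 and is printed on the minus strand, 5′ to 3′, with motif matches in capitals.
GABRP: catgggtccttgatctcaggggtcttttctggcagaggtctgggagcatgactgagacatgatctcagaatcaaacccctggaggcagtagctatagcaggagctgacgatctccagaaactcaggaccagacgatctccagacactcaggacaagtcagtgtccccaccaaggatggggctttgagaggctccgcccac
VTCN1: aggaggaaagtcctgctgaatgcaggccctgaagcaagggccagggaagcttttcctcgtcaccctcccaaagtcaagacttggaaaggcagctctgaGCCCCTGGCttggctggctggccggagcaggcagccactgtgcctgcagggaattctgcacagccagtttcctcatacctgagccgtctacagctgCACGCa
The letters searched, on both strands, were GCCNNNGGC as bound by the TFAP2 factors, GATAA for those of the GATA family, CACGTG for the E-box, ACGTG for the hypoxia response core (it also lies inside the E-box), GCGTG for the AHR response core and TATAAA for the core promoter box. The GABRP window held none of the 6. The VTCN1 window held a TFAP2 match from 152 to 144 bases before the start and an AHR core from 56 to 52 bases before it. Of the windows not printed, that of ANXA3, which overlaps an annotated exon, held a TFAP2 match (83 to 75 bases before the start), that of EPAS1 an AHR core (117 to 113 bases) and that of ITGB6 no match. Among 35116 promoter windows of this length, 15.7% held the TFAP2 letters, 26.3% the AHR core, 17.4% GATAA, 14.4% ACGTG, 7.63% TATAAA and 4.51% CACGTG. A match describes the letters and is not a measured binding site, and HEY1 and CYP1B1 were not searched.

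The tables hold 2071 to 7575 barcodes per sample, and 2265, 3175, 2289 and 1951 cells had at least 500 genes in hESC 1, hESC 2, blastoid 3 and blastoid 4. These cells carried 13488703, 15913590, 15227582 and 18139535 UMIs in the same order, with medians of 5793, 4996, 6232 and 8828 UMIs per cell. A UMI is a short tag read with each captured RNA, so that amplified copies of it count once, and CPM below stands for the UMIs of a gene scaled to the same total in every sample or set of cells named. Cell barcodes were shared within groups, 1317 between the hESC samples and 1035 between the blastoid samples, but only 23 and 0 of them had at least 500 genes in both tables. Summed over 12 pluripotency markers the hESC samples had 6475 and 6713 CPM and the blastoid samples 1018 and 957.4 CPM. Clusters were built without the 7 genes and without TFAP2A and TFAP2B, and of the 14 clusters 2 led with the markers shared by trophectoderm and amnion. Cluster 11 detected 14 of 15 of them but also 11 of 12 pluripotency markers and was left unnamed, and cluster 3 detected 13 of 15 and 6 of 12. Cluster 3 held 416 cells of blastoid 3 (18.2%) and 643 of blastoid 4 (33.0%), and is called the trophectoderm/amnion-like class, since its markers do not separate the 2 tissues.

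GABRP was at 10.6 CPM in hESC 1, 8.92 in hESC 2, 62.5 in blastoid 3 and 136 in blastoid 4. Both blastoid samples lay above both hESC samples, with means of 9.76 ± 1.19 CPM (SD, n = 2) and 99.5 ± 52.3 CPM (SD, n = 2), a ratio of means of 10.2. VTCN1 was not listed in either hESC table and stood at 24.9 CPM in blastoid 3 and 60.9 CPM in blastoid 4 (42.9 ± 25.4, SD, n = 2). For a gene missing from both hESC tables a lower bound was taken from the 95% upper limit of 2 counts in each table, because the tables list few genes seen in fewer than 3 barcodes, and on that assumption VTCN1 was at least 143-fold higher in blastoids, with the UMIs of each group pooled. ITGB6, with the fewest UMIs of the 7, was also not listed in the hESC tables and was at 2.63 and 14.6 CPM in blastoids, at least 29.4-fold higher on the same terms. Both blastoid samples lay above both hESC samples for all 7 genes, as they did for 47.3% of the 16368 genes tested, and the members were chosen with these levels in view.

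ANXA3 was at 14.1 and 13.3 CPM in the hESC samples and at 40.9 and 80.8 CPM in the blastoid samples, a ratio of means of 4.45 and the smallest of the 7. HEY1 was at 0.964 and 0.817 CPM against 55.4 and 86.7 CPM (ratio of means 79.8), and EPAS1 was at 0.741 and 1.63 CPM against 102 and 164 CPM (ratio of means 112). CYP1B1 was at 1.71 and 1.51 CPM in hESC and at 42.8 and 86.8 CPM in blastoids (ratio of means 40.4). Blastoid 4 was the higher blastoid sample for every member, from 1.57-fold for HEY1 to 5.56-fold for ITGB6. Within the trophectoderm/amnion-like class, which was the larger share of blastoid 4, the 2 samples were closer: the ratio of blastoid 4 to blastoid 3 was 1.22 for GABRP, 1.36 for VTCN1, 1.02 for EPAS1, 1.16 for HEY1, 1.11 for ANXA3 and 1.10 for CYP1B1, and 3.01 for ITGB6.

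**Figure D1:**
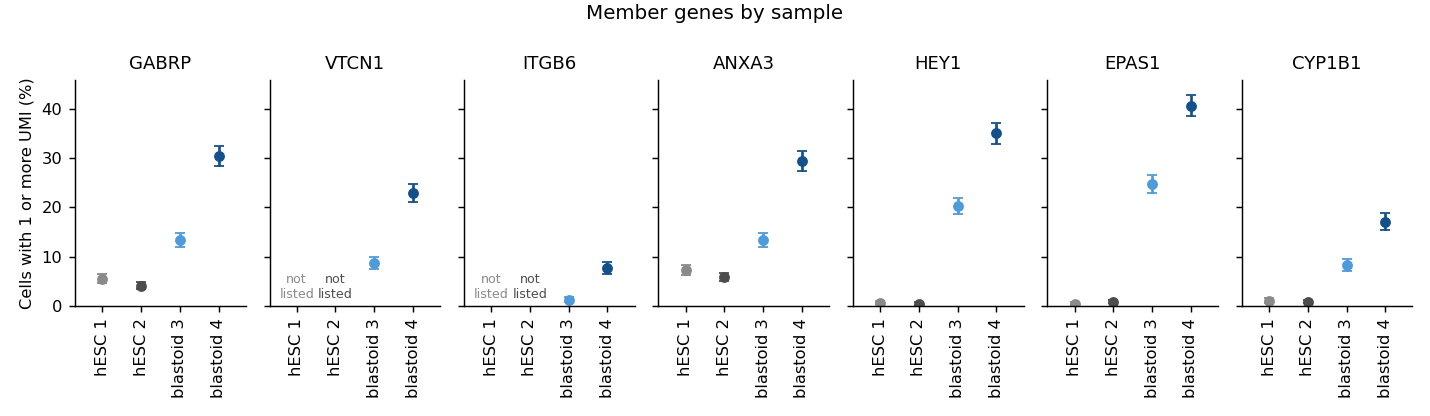
Percent of cells with 1 or more UMI of each gene (vertical axis) in each of the 4 samples (horizontal axis), with exact 95% intervals that cover counting error only. Both blastoid samples lie above both hESC samples for every gene, and VTCN1 and ITGB6 are not listed in the hESC tables.

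By cells, GABRP had a UMI in 5.52% (exact Clopper-Pearson 95% interval 4.61% to 6.54%) of the cells in hESC 1 and in 4.03% (3.37% to 4.78%) of those in hESC 2. The shares in blastoid 3 and blastoid 4 were 13.4% and 30.5%. After every cell was thinned to 2000 UMIs the shares were 2.02%, 1.91%, 7.34% and 16.2%. The hESC samples held 143 and 142 GABRP UMIs in total, with at most 3 and 4 in a cell, while VTCN1 was not listed there. In the mesenchyme-like blastoid cells without TFAP2, which were set beside the others as a reference for stray UMIs, 1.70% and 2.96% of cells had a GABRP UMI, at median depths of 6134 and 8277 UMIs. No profile of empty droplets was used here, and whether those cells express the gene was not measured. CYP1B1 reached few cells at high counts: it was detected in 8.21% and 17.1% of blastoid cells, with up to 20 and 38 UMIs in a cell, against at most 2 and 1 in hESC.

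In the edgeR quasi-likelihood test on the UMIs summed per sample, 4466 of 16368 genes (27.3%) were called higher in blastoids at a Benjamini-Hochberg adjusted p under 0.05, and 3761 (23%) lower. The choice of members had used this contrast, so no call is given for them, and the shares serve as the background of the gene lists described further on. Without hESC 1 the test called 4424 genes and without hESC 2 it called 5038, against 8227 in all. Scaling by library size alone gave 5147 higher and 3005 lower, and shifted the median of all genes by 0.134 on the log2 scale.

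Which blastoid cells carried the genes was described by splitting the cells on TFAP2A and TFAP2B. Neither factor was listed in the hESC tables. In blastoid 3, 480 of 2289 cells had 1 or more UMI of either factor, and in blastoid 4, 721 of 1951 did (called TFAP2-positive below). These cells held 24.0% and 40.9% of the UMIs of the 2 samples and were deeper, with medians of 6953 against 6066 UMIs in blastoid 3 and 9537 against 8397 in blastoid 4. In TFAP2-positive cells the summed level of the 15 trophectoderm/amnion markers was 3099 and 3859 CPM, against 1617 and 1826 CPM in the others, and the 16 mesenchyme markers were at 2043 and 1645 CPM against 5589 and 4763 CPM.

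GABRP was detected in 49.0% (44.4% to 53.5%) of TFAP2-positive and 3.98% (3.13% to 4.99%) of TFAP2-negative cells of blastoid 3, and in 72.0% (68.6% to 75.2%) and 6.10% (4.83% to 7.58%) of those of blastoid 4. VTCN1 was detected in 33.8% against 1.94% of cells in blastoid 3 and in 55.3% against 3.90% in blastoid 4. At 2000 UMIs per cell the GABRP shares were 30.2% and 1.22% in blastoid 3 and 38.7% and 2.69% in blastoid 4, and those of VTCN1 were 16.7% and 0.988%, and 22.4% and 1.51%. The split itself was made at full depth, and TFAP2A was left in 40.8% and 34.5% of the TFAP2-positive cells after thinning, so that the part of depth in the split was not tested. TFAP2-positive cells held 85.3% of all GABRP UMIs of blastoid 3 and 92.1% of those of blastoid 4, and 84.7% and 93.3% of all VTCN1 UMIs.

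The 7 genes were not equally specific. By the ratio of CPM in TFAP2-positive to that in negative cells, GABRP stood at 18.3 and 16.8 (blastoid 3 and blastoid 4), VTCN1 at 17.5 and 20.1, CYP1B1 at 17.4 and 19.4, and ITGB6 at 17.9 and 14.5 from far fewer UMIs. ANXA3 followed at 10.8 and 11.9 and EPAS1 at 7.79 and 10.2. HEY1 was the least specific at 3.39 and 3.92, and only 41.9% and 61.1% of the cells with HEY1 were TFAP2-positive, against 76.5% and 87.4% of the cells with GABRP. All 7 passed a 2-fold ratio in both samples, as did 856 of 13998 genes (6.12%) in this direction and 634 (4.53%) in the other, but this split is the one the members were chosen on. Judged on blastoid 4 alone 1290 genes were higher and 1239 lower. Beyond the members and the 2 factors themselves, the largest rises belonged to PAPPA2, a protease of insulin-like growth factor binding proteins (25.0 and 22.7), TNFSF8, the ligand of CD30 (24.3 and 19.7), and CYP1A1, a cytochrome P450 induced through AHR (17.5 and 29.1), followed by AJ009632.2 (18.3 and 15.1) and by PLD5 at 12.8 against 0.432 CPM in blastoid 3 and 18.2 against 0.933 CPM in blastoid 4. These ratios, and all ratios between sets of cells below, were taken with 3 counts added to damp low values, which puts GABRP at 17.8 and 16.5 on the same scale.

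**Figure D2:**
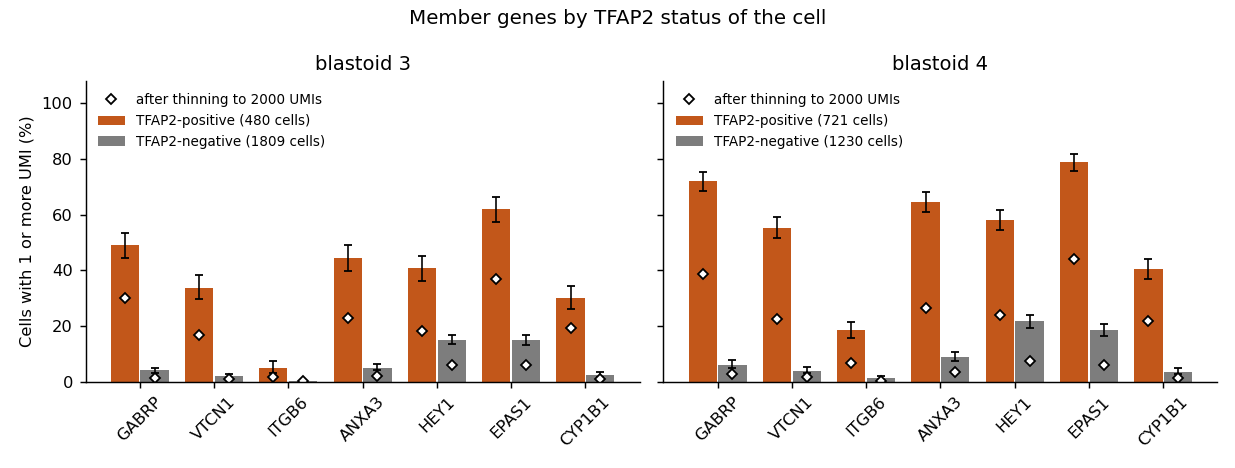
Percent of cells with 1 or more UMI of each gene in TFAP2-positive (orange) and TFAP2-negative (grey) cells of blastoid 3 and blastoid 4, with exact 95% intervals, and diamonds for the shares after thinning to 2000 UMIs. For GABRP the bars are 49.0% and 3.98% in blastoid 3 and 72.0% and 6.10% in blastoid 4, while HEY1 and EPAS1 keep the highest bars among TFAP2-negative cells.

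Across the threshold of 1 UMI the share of cells with GABRP went from 3.98% at 0 TFAP2 UMIs to 32.3% at 1, 57.5% at 2 to 3 and 64.0% at 4 or more in blastoid 3. In blastoid 4 the same shares were 6.10%, 47.5%, 76.1% and 86.3%, and those of VTCN1 were 3.90%, 30.5%, 57.8% and 71.5%. Median depth went up as well, from 6066 to 8362 and from 8397 to 10420 UMIs between the lowest and the highest class, and its part was not tested. The count also went with the kind of cell. TFAP2A had 750 and 1402 UMIs in 289 and 518 trophectoderm/amnion-like cells. In the mesenchyme-like cluster 5 it had 30 and 49 UMIs in 28 and 38 cells. GABRP was in only 1.87% and 11.5% of TFAP2-positive mesenchyme-like cells. The part of this mix in the rise was not tested. The share of cells with GABRP was larger in cells with TFAP2B. Cells with TFAP2B and no TFAP2A UMI (43 and 73) had GABRP in 72.1% and 82.2%, cells with TFAP2A alone (300 and 328) in 35.7% and 52.4%, and cells with both (137 and 320) in 70.8% and 89.7%. The cells with TFAP2B alone were the shallowest of the 3 kinds, with medians of 5849 and 8128 UMIs against 6907 and 9689 for TFAP2A alone. The 2 factors also differed by cell class. TFAP2B had a UMI in 39.7% and 58.2% of trophectoderm/amnion-like cells but in 0.347% and 1.35% of the mesenchyme-like cluster 4. For TFAP2A these shares were 69.5% and 80.6%, and 4.17% and 6.31%. The part of class in the TFAP2B difference was not tested.

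By cluster, GABRP had a UMI in 64.4% and 83.2% of the trophectoderm/amnion-like cells and VTCN1 in 44.0% and 65.6%. In the mesenchyme-like clusters GABRP was between 0% and 4.37%. HEY1 and EPAS1 were also detected in mesenchyme-like clusters, HEY1 in 18.1% and 22.1% of cluster 4 and 20.3% and 26.2% of cluster 5, and EPAS1 in 34.3% and 47.2% of cluster 8, which is led by CXCL14, SST and MGP. The ratio between the genes differed there from that in the trophectoderm/amnion-like class. HEY1 had 0.526 and 0.497 UMIs per GABRP UMI in that class but 7.89 and 8.50 in cluster 4 (over 19 and 18 GABRP UMIs). EPAS1 had 1.32 and 1.10 in that class, while cluster 8 held 189 and 103 EPAS1 UMIs beside only 2 and 4 of GABRP, too few for a ratio. The unnamed cluster 11 (87 and 109 cells) had GABRP in 10.3% and 13.8% of cells and CYP1B1 in 11.5% and 15.6%.

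**Figure D3:**
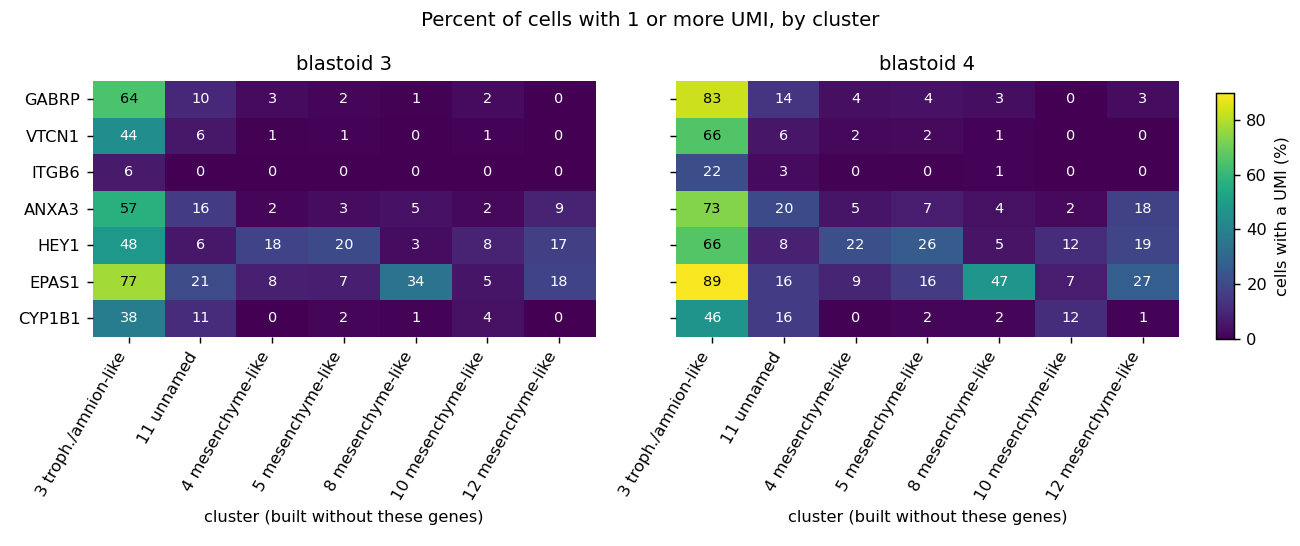
Percent of cells with 1 or more UMI of each gene (rows) in the larger clusters of blastoid 3 and blastoid 4 (columns), where the colour and the number give the percent. All 7 genes have their highest share in cluster 3, the trophectoderm/amnion-like class, and among the mesenchyme-like clusters HEY1 reaches 18.1% to 26.2% in clusters 4 and 5 and EPAS1 34.3% and 47.2% in cluster 8.

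Cells were then split by class and by TFAP2. TFAP2-negative cells inside the trophectoderm/amnion-like class (87 and 59, with medians of 4619 and 5500 UMIs) had GABRP in 47.1% and 57.6% and VTCN1 in 28.7% and 52.5%. TFAP2-positive cells of the same class (329 and 584, medians 6835 and 9338) had GABRP in 69.0% and 85.8%. TFAP2-positive cells in mesenchyme-like clusters (107 and 96) had GABRP in only 1.87% and 11.5% and VTCN1 in 0% and 5.21%, where 0 of 107 cells allows up to 3.39%. The first value is near the 1.70% of the TFAP2-negative mesenchyme-like cells of blastoid 3, and the second lies above the 2.96% of those of blastoid 4.

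GABRP and VTCN1 were found together in 131 of 480 TFAP2-positive cells of blastoid 3 (27.3%) and 369 of 721 of blastoid 4 (51.2%). The product of their separate shares would give 79.3 and 287 cells, so that the observed number was 1.65 and 1.29 times it, and 1.72 and 1.46 times it after thinning to 2000 UMIs. Of the TFAP2-positive cells with VTCN1, 80.9% and 92.5% also had GABRP, while 55.7% and 71.1% of those with GABRP had VTCN1. Inside the trophectoderm/amnion-like class the excess was smaller, at 1.18 and 1.08 (1.23 and 1.20 thinned). Depth and class, which both genes share, raise such a ratio, and no test was made of it.

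A TFAP2-positive cell carried a median of 3 of the 7 genes in blastoid 3 and 4 in blastoid 4. All 7 were found in 5 and 47 of these cells, 5 or more in 22.1% and 47.6%, and none in 20.6% and 9.99%. Among TFAP2-negative cells 2.10% and 4.39% had 3 or more, and among hESC cells 0 of 2265 and 0 of 3175 did, which allows up to 0.163% and 0.116% by exact 95% intervals. In the TFAP2-positive cells of the class, before thinning, the co-detection of CYP1B1 with GABRP was 0.963 and 1.04 times the product of the shares, with HEY1 0.979 and 0.987 and with EPAS1 1.03 and 1.02, but with ITGB6 it was 1.64 and 1.46. ITGB6 was in only 24 of 329 and 130 of 584 of these cells. Cells with CYP1B1 were also deeper, and the part of depth was not tested. The UMIs of CYP1B1 were the most concentrated after those of ITGB6: the top 10% of all cells of the class, with or without TFAP2, held 58.6% and 59.8% of them, against 40.7% and 29.0% for GABRP and 33.9% and 29.0% for EPAS1.

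**Figure D4:**
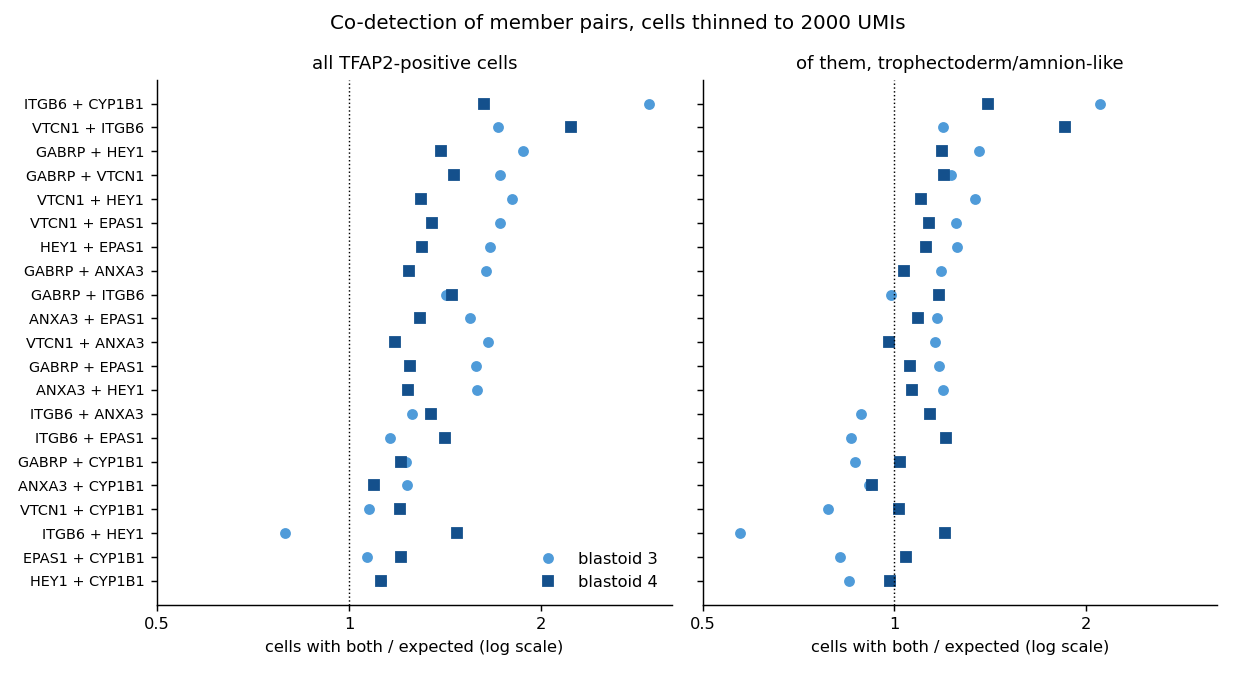
Number of cells with both genes of a pair divided by the number the product of their shares would give (log axis), after thinning to 2000 UMIs, in all TFAP2-positive cells (left) and in those of the trophectoderm/amnion-like class (right), for blastoid 3 (circles) and blastoid 4 (squares). GABRP with VTCN1 lies at 1.72 and 1.46 on the left and at 1.23 and 1.20 on the right, and pairs of CYP1B1 with GABRP, VTCN1, HEY1 and EPAS1 lie near or below 1 on the right.

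What else separated cells with GABRP from cells without it was described within TFAP2-positive cells (235 against 245 cells in blastoid 3, 519 against 202 in blastoid 4). The 2 sides had near-equal depth, with medians of 6984 and 6910 UMIs and of 9521 and 9604. Of the other 6 members 5 passed 2-fold in both samples, as did 234 of 11077 genes (2.11%) in this direction: VTCN1 at 5.56 and 7.69, HEY1 at 6.04 and 4.54, ANXA3 at 6.31 and 4.21, EPAS1 at 3.57 and 3.52 and ITGB6 at 4.73 and 7.80. CYP1B1 was at 1.36 and 2.86. Co-detection was part of the choice of the members, so their ratios here and in the splits below are a description. The 5 largest rises beyond the members were PAPPA2 (10.6 and 19.0), TGFBI, a matrix protein induced by TGF-beta (8.79 and 8.20), MTUS2 (7.40 and 10.5), CA3, a carbonic anhydrase (7.29 and 14.9), and IGFBP5, an insulin-like growth factor binding protein (11.8 and 6.94). The negative side also held cells of other classes, and 10 of 14 mesenchyme markers tested were lower on the positive side. Judged on blastoid 3 or blastoid 4 alone, 403 and 626 genes were higher with GABRP.

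The split was therefore repeated in the TFAP2-positive cells of the trophectoderm/amnion-like class, a choice made after the data were seen (227 against 102 cells and 501 against 83). Here the cells with GABRP were deeper, with medians of 6984 against 6380 and of 9476 against 8203 UMIs. There 121 of 9785 genes (1.24%) were higher and 60 lower with GABRP, and on blastoid 3 or blastoid 4 alone 329 and 723 were higher and 253 and 273 lower. HEY1 (4.00 and 2.54), VTCN1 (2.45 and 3.04) and ITGB6 (2.40 and 3.90) passed, ANXA3 (3.11 and 1.95), EPAS1 (1.66 and 1.59) and CYP1B1 (0.583 and 1.22) did not. At 2000 UMIs per cell VTCN1 stood at 1.85 and 2.07 and did not pass. ITGB6 stood at 1.02 and 2.27. Only 7 of all 461 thinned TFAP2-positive cells of blastoid 3 had an ITGB6 UMI, too few to judge its ratio. Another receptor subunit, GABRG3, had ratios of 3.08 and 5.77 in the cells with GABRP, from low levels. It was at 18.29 against 4.285 CPM in blastoid 3 and at 28.15 against 4.035 CPM in blastoid 4. The genes named next, from both splits of this class, were chosen after their values were seen.

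TFAP2-positive class cells without GABRP had more CAV1, the coat protein of caveolae, at 153 against 5.71 CPM in blastoid 3 and 126 against 5.47 CPM in blastoid 4. A single cell held 24.8% and 41.0% of the CAV1 UMIs of all TFAP2-positive class cells in the 2 samples. CAV1 was found in 13.7% of the cells without GABRP against 3.97% of those with it, and in 13.3% against 3.99%. HOPX, a homeodomain-only protein, was found in 23.5% against 8.37% and 26.5% against 5.99% of cells, and both genes kept their 2-fold difference after thinning. CGA, the common alpha chain of the glycoprotein hormones and a trophoblast product, was also lower with GABRP (ratios 0.00963 and 0.0972), but it rests on few cells. Of 304 CGA UMIs in TFAP2-positive class cells of blastoid 3, 260 (85.5%) came from 1 cell, and 7 and 15 such cells had any. The fusion regulator GCM1 had a UMI in 6 and 6 TFAP2-positive class cells, of which 0 and 2 had GABRP. Other genes of the trophoblast list were mixed in this split. PGF was lower with GABRP (0.0564 and 0.157, with 50% of its UMIs of blastoid 3 in 1 cell). ENPEP was at 1.34 and 2.20. CYP19A1 was at 0.0591 and 1.62, with 75.4% of its UMIs of blastoid 3 in 1 cell. By cells it was in 7.93% with GABRP against 8.82% without in blastoid 3, and in 10.2% against 6.02% in blastoid 4.

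When TFAP2-positive class cells were split on CYP1B1 instead (134 against 195 and 280 against 304 cells), 14 of 9785 genes (0.143%) were higher and 16 lower, and none of the other 6 members passed. On blastoid 3 or blastoid 4 alone 134 and 102 genes were higher and 127 and 88 lower. ITGB6 was nearest at 1.96 and 2.39, and GABRP was at 0.967 and 1.08, VTCN1 at 1.03 and 1.32 and HEY1 at 0.757 and 0.830. CYP1A1 led the rises at 61.3 against 8.20 CPM in blastoid 3 and 60.4 against 7.28 CPM in blastoid 4. It was detected in 22.4% of the cells with CYP1B1 against 3.08% of those without, and in 23.9% against 4.93%. Cells with CYP1B1 were deeper, with medians of 7790 against 6377 and 10170 against 8340 UMIs, and after thinning CYP1A1 was under the 20 UMIs needed, at ratios of 4.98 and 5.88. TIPARP, which AHR also induces, was at 2.78 and 1.59 and NQO1 at 2.08 and 1.61, so that neither passed in both samples.

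**Figure D5:**
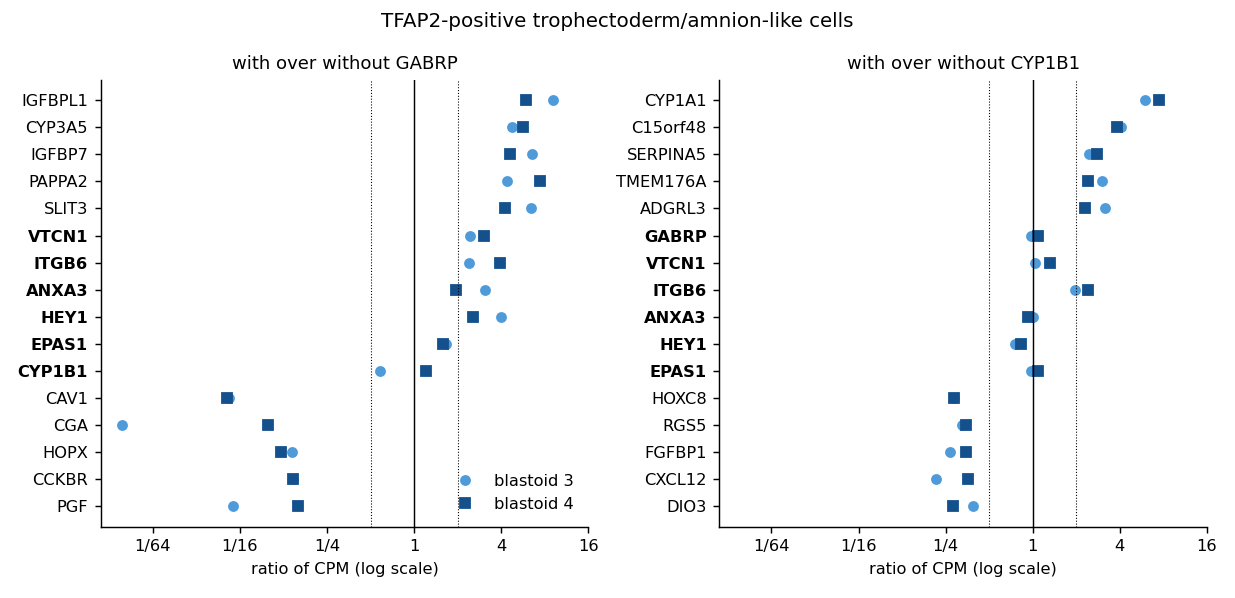
Ratio of CPM in cells with GABRP to cells without it (left) and with CYP1B1 to cells without it (right) inside the TFAP2-positive trophectoderm/amnion-like class (log axis), for blastoid 3 (circles) and blastoid 4 (squares), with dotted lines at 2-fold and members in bold. CYP1A1 lies at 5.99 and 7.40 on the right, where GABRP, ANXA3 and EPAS1 lie near 1, and the CGA point of blastoid 3 on the left rests mostly on 1 cell.

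Over all blastoid cells (2289 and 1951) the genes whose log-scaled levels were most like GABRP, among 9906 ranked by the mean Pearson r of the 2 samples, were ANXA3 (0.635), EPAS1 (0.632), the glucose transporter SLC2A3 (0.632), VTCN1 (0.604) and the protease PRSS12 (0.597). For VTCN1 they were GABRP (0.604), EPAS1 (0.535), IGFBP7 (0.521), SLC2A3 (0.516) and PRSS12 (0.506). The median over all genes was -0.016. HEY1 ranked 39 and CYP1B1 ranked 63 in likeness to GABRP, and ITGB6 was in too few cells to be ranked. Cells of a sample share their library and differ in depth and class, and these values carry no test.

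The pathways around the members were read from lists of related genes, without the members. Of the GABA-A receptor subunits, 9 of 15 in the tables could be tested with edgeR, 3 were called higher in blastoids and 6 lower (median log2 fold change -1.54, against 0.05 over all genes). Over all genes tested 27.3% were called higher and 23% lower, and 6.12% and 4.53% passed 2-fold up and down by TFAP2, and the list counts here and below stand beside those shares. GABRG3 (4.75, SE 0.35), GABRB2 (4.31, SE 0.34) and GABRA2 (2.85, SE 0.36) were higher. The lower calls numbered 3 without hESC 1 and 4 with DESeq2. None of the subunits passed 2-fold upward in TFAP2-positive cells, where GABRB2 was lower at 0.371 and 0.428. Of the other B7 genes, 1 of 4 tested was called, VSIR, which was at 0 and 0.126 CPM in hESC and at 1.38 and 1.16 CPM in blastoids, and CD276 was at a log2 fold change of -0.12 (SE 0.13). Without blastoid 4 the B7 calls numbered 2. No B7 gene of 4 tested differed 2-fold by TFAP2.

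Of the integrin chains and latent TGF-beta genes, 10 of 15 were called higher and 2 lower (median 0.67), but only 5 and 6 higher without hESC 1 and without hESC 2. TGFB2 had the largest rise (4.13, SE 0.30) and ITGA6 the largest fall (-1.64, SE 0.12). ITGAV, the partner of the beta-6 chain, rose by 0.90 (SE 0.19, edgeR adjusted p = 0.0067), a call lost without hESC 1. By TFAP2, ITGB4, ITGB5, ITGA2 and ITGA3 were more than 2-fold higher in the positive cells and ITGB8, the other beta chain known for latent TGF-beta, was lower (0.280 and 0.179). Among the annexins 6 of 8 were called, all of them higher (median 1.65), with ANXA1, not listed in hESC, at least 124-fold higher. ANXA2 rose by 3.50 (SE 0.16), and ANXA5 was at 0.01 (SE 0.13). ANXA1, ANXA2, ANXA4 and ANXA9 were higher in TFAP2-positive cells, ANXA1 at 5.32 and 6.97. Without hESC 1 the annexin calls numbered 4.

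Around HEY1, 4 of 20 Notch pathway genes were higher and 7 lower (median -0.24), and 7 and 8 without blastoid 4. The 27.3% and 23% of all genes called stand beside these counts, which are no result about the pathway. HES1 rose by 3.90 (SE 0.40, edgeR adjusted p = 0.00024), NRARP fell by 1.99 (SE 0.18) and NOTCH1 fell by 1.04 (SE 0.14), while HEY2 was at 0.29 (SE 0.15) and not called. Only HES2 was 2-fold higher in TFAP2-positive cells (3.27 and 2.44), and DLL3 was lower. Among BMP response genes 13 of 14 were called, all of them higher (median 4.15), among them DLX5, at least 38.5-fold higher, and MSX2 (8.65, SE 0.24). By TFAP2 they were mixed: DLX5, ID1, ID4 and BMP7 were higher in the positive cells and BMP4, BMP2 and SMAD9 lower, BMP4 at 0.329 and 0.237.

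Around EPAS1, 1 of 9 other HIF subunits and regulators was called, EGLN3, a prolyl hydroxylase of the HIF subunits, which fell by 1.68 (SE 0.18). HIF1A was at 0.05 (SE 0.12) and ARNT at -0.06 (SE 0.16). Under library size scaling 2 of the 9 were called higher, EGLN1 and ARNT2, and 2 were without blastoid 4 and 1 without blastoid 3. Of 13 HIF targets 5 were higher and 3 lower (median 0.61; 8 and 4 without blastoid 4), close to the 27.3% and 23% of all genes, and they ranged from NDRG1 (3.79, SE 0.37) to ADM, which fell by 2.18 (SE 0.23). In TFAP2-positive cells ADM, NDRG1, SLC2A1 and ANKRD37 were higher, SLC2A1 at 3.40 and 3.32, and LOX was lower.

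Around CYP1B1, 7 of 14 AHR and retinoid genes were higher and 3 lower (median 0.75). CYP1A1, not listed in hESC, was at least 29.5-fold higher, TIPARP rose by 1.80 (SE 0.25) and CRABP1, a retinoic acid binding protein, fell by 2.45 (SE 0.14). AHR itself was at -0.05 (SE 0.29) over all cells but was 5.10 and 5.38 times higher in TFAP2-positive than in negative blastoid cells. CYP1A1, NQO1, CYP26B1 and DHRS3 were also more than 2-fold higher there, 5 of 13 genes tested.

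The label of the genes was set against lists of tissues, chosen with earlier results of these data known, so the counts are no independent check. Of 16 amnion genes 14 were higher in blastoids and 1 lower, CLDN10, whose call was lost with DESeq2, with library size scaling, with called doublets left out and without hESC 1, hESC 2 or blastoid 3. HAND1 was at least 2450-fold higher. In TFAP2-positive cells 8 of 16 were higher, among them WNT6 (12.3 and 11.7) and NR2F2 (6.07 and 8.16), and POSTN was lower. All 8 TFAP2 and GATA list genes were called higher, but 2 of them are TFAP2A and TFAP2B, on which the members were chosen. Of the others, GATA3 (4.27 and 4.69), GATA2 and TFAP2C were more than 2-fold higher with TFAP2 while CDX2 was lower (0.475 and 0.324). Of 14 trophoblast genes 11 were called higher, most at few UMIs: ELF5 had 15 and 18, GCM1 19 and 13 and TP63 12 and 17 in the blastoid samples. By TFAP2, 5 of the 10 trophoblast genes tested were more than 2-fold higher in the positive cells and 1 was lower. All 16 simple epithelium genes were higher with TFAP2, from KRT8 (2.23 and 2.22) to KRT7 (14.2 and 18.5). Several amnion genes are also in the marker list of the trophectoderm/amnion-like class, so these counts do not separate the 2 tissues. Of the surface ectoderm and neural crest genes 4 of 6 were called higher and FOXD3 fell by 6.82 (SE 0.49), and of the germ cell genes 1 of 4 was called, KIT, which fell by 1.15 (SE 0.26), a call lost without hESC 1.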

How the data were processed

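For each sample the authors deposited whole-number UMI counts, with gene symbols as rows, from 10x Chromium 3′ libraries, made with Cell Ranger on GRCh38 per the submitters' processing notes; its version and the annotation are not given in the sources used here. The deposited barcodes had 201 to 4994 genes and at most 19.98% mitochondrial UMIs, a filter measured from the tables. The members and all gene lists were chosen with earlier results of these data known. Cells with at least 500 genes were kept (9680), and 73 (0.754%) that Scrublet called doublets were left in. Counts summed per sample were tested with edgeR 4.0.16 (R 4.3.3; quasi-likelihood, TMM, filterByExpr, Benjamini-Hochberg threshold 0.05) over all genes. DESeq2 1.42.0 was an alternative. Clusters (scanpy 1.11.5, leidenalg 0.10.2) used 2000 variable genes, 30 principal components, 15 neighbours and resolution 0.5, and took the class with most of its markers in at least 10% of cells. A cluster with a second class within 10 percentage points stayed unnamed, a rule added after the clusters were seen. Their names were rebuilt here and may differ from those of the study.

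In comparisons of cells within a sample, a gene was counted where the ratio of CPM, with 3 counts added and scaled to each side, was at least 2 in both blastoid samples, among genes with at least 20 UMIs. These carry no p, since cells are not replicates. Both methods were tested on simulated data. Intervals cover counting error only. A gene at 0 in listed hESC tables was bounded at 3 counts, a missing one at 9.15. Genes named are the members, TFAP2A and TFAP2B, the 5 nearest to GABRP and to VTCN1 (UMI in at least 5% of cells), the 5 largest rises of 2 splits, and, of each list, its counts, its extremes and genes with a role beside a member. Matched by symbol, 5 of 7 promoters were found in the RefSeq table. Some genes of the receptor subunit list are not reported here by name.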

Additional observations from a re-analysis of the deposited data

How the results depend on the processing

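The number of genes called between blastoids and hESC went from 8227 to 4882 with a log2 fold minimum of 1, and ranged from 4424 to 10033 when a sample was left out. DESeq2 called 3533 higher and 2862 lower, and library size scaling, no filter, all barcodes and called doublets left out gave 8152 to 8935. Of 13998 genes, 1490 passed 2-fold by TFAP2, 632 passed 3-fold and 844 after thinning, which left 10853 to test, and leaving out a blastoid sample gave 2068 to 2529. By GABRP in TFAP2-positive cells, 564 genes passed, 237 at 3-fold and 192 thinned, with 1012 to 1289 on 1 sample. The splits inside the trophectoderm/amnion-like class and their alternatives were chosen after seeing the data: by GABRP 181 genes passed, 56 at 3-fold and 68 thinned (582 to 996 on 1 sample), and by CYP1B1 30, 4 and 13 (190 to 261). With 1 sample the rule asks for less by construction. Thinning lowered the GABRP share of TFAP2-positive cells from 49.0% to 30.2% and from 72.0% to 38.7%, and the VTCN1 share from 33.8% to 16.7% and from 55.3% to 22.4%, and a minimum of 2 TFAP2 UMIs raised them to 60.4%, 81.4%, 43.9% and 64.9%. Co-detection in blastoid 4 went from 1.29 to 1.46 thinned. For the members and a set of other chosen genes, ratios between sides were compared under each alternative. Of these, 391 stayed as they were, called or not called, 26 lost a call and 10 gained one, and none reversed. Of the other shares of cells with a member, 70 moved outside the interval of the main value and 110 stayed inside it. The cause of these changes was not tested. No paired analysis was possible because the groups share no replicate numbers.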
